A study of Mus musculus with 36 samples.

Results

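The genes of MHC class II antigen presentation were followed in blood RNA of sickle cell mice given the microRNA MIR29B or a scrambled control. They were 9 genes chosen by name, H2-Aa, H2-Ab1, H2-Eb1, Cd74, Ciita, H2-DMa, H2-DMb1, H2-DMb2 and H2-Ob, out of 16812 genes in the table of raw counts. Each gene was represented by its RefSeq transcript with the highest total count. All 9 passed the filter on low counts, which 11953 genes passed.

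MHC class II molecules display peptides from endocytosed proteins to CD4+ T cells, and in blood they are made mainly by B cells, monocytes and dendritic cells. H2-Aa and H2-Ab1 encode the alpha and beta chains of the I-A molecule, and H2-Eb1 encodes the beta chain of I-E. Cd74 encodes the invariant chain, which fills the peptide groove until the molecule reaches the endosome. H2-DMa pairs with the beta chains encoded by H2-DMb1 and H2-DMb2 to form H2-DM, which exchanges the last piece of the invariant chain for peptide. H2-Ob encodes the beta chain of H2-O, an inhibitor of H2-DM that is best known from B cells. Ciita encodes the coactivator that switches the whole group on. It does not bind DNA itself but is recruited by factors that sit on the X and Y boxes of class II promoters.

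The study used Townes sickle cell mice, in which human globin genes with the sickle mutation take the place of the mouse globin genes, and every group carried these alleles. A mini-osmotic pump delivered MIR29B, which the series title describes as cholesterol-modified, or the scrambled control at 2 or 3 mg/kg, and peripheral blood was taken at weeks 0, 2 and 4. This gave 12 groups of 3 libraries, 36 in all, made from total RNA after removal of globin mRNA. The stated purpose was to test repeated MIR29B dosing as a way to raise fetal hemoglobin and to survey its effect on transcripts. The labels do not say whether week 0 blood preceded the first dose, whether libraries of different weeks came from the same animals, or how old the animals were. The p-values therefore measure the spread between these libraries, which may be technical in part.

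The promoters of the class II genes were searched for letters of the X and Y boxes. RefSeq promoter windows on GRCm38.p6, from 250 bases before to 50 bases after a transcription start, were matched for 6 of the 9 genes, H2-DMa with more than 1 window. The Y box letters TGATTGG, searched on both strands, were found in the windows of 5 genes, and among all 32851 RefSeq windows 7.82% held them. The letters AACNNATG, a core of the X box, were found in the windows of 4 genes and in 8.86% of all windows. Both motifs in this order, with the X core starting 15 to 40 bases before the Y box, were found in 15 windows, 0.0457% of all, and 4 of these belonged to H2-DMb1, H2-DMb2, H2-Eb1 and H2-Ob. At that spacing the motifs do not overlap. The letters and the spacing were chosen after these sequences had been read, so the shares describe the windows and test nothing. The 80 bases around the Y box are shown for the 5 genes 5′ to 3′ along the gene's strand, with both motifs in capitals, because members of the group share these letters and were not chosen by them.
H2-Eb1 (chr17:34305756-34305835, plus strand): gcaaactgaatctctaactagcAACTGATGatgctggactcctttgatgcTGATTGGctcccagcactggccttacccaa
H2-DMb1 (chr17:34153078-34153157, plus strand): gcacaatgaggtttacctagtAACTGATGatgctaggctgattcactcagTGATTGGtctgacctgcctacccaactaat
H2-DMb2 (chr17:34145107-34145186, plus strand): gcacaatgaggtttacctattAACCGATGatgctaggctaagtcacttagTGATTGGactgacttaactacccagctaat
H2-Ob (chr17:34238796-34238875, plus strand): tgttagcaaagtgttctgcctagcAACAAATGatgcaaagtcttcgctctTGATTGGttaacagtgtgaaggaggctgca
H2-Aa (chr17:34287844-34287923, minus strand): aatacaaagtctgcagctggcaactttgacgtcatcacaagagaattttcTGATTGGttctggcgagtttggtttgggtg
The Y box began 50 bases before the RefSeq start in H2-Aa, 59 in H2-Ob, 61 in H2-Eb1, 63 in H2-DMb1 and 92 in H2-DMb2. The X core began 26 bases before the Y box in H2-Ob, 28 in H2-Eb1 and 29 in both H2-DMb1 and H2-DMb2. The H2-Aa window held the Y box letters without these X core letters, and the H2-DMa windows held neither.

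The administered microRNA reads its targets through bases 2 to 8, its seed, shown in capitals because a seed match is what would mark a class II transcript as a candidate target.
mmu-miR-29b-3p: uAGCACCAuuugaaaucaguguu
Seed matches were counted in the 3′ UTR of each transcript counted here. The full match of 8 bases, TGGTGCTA, was in none of the 9 genes and in 3.28% of the 11194 tested genes with a 3′ UTR. The match to bases 2 to 8, TGGTGCT, occurred once in Ciita and in 16.9% of tested genes, and GGTGCTA occurred once in H2-Ob and in 8.18% of tested genes. The other 7 members held none of these matches.

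The 7 H2 genes lie together in the major histocompatibility complex on chromosome 17 of GRCm38, from H2-DMa at 34119693 to H2-Eb1 ending at 34316674, and Ciita lies at chr16:10480014-10531064. H2-DMb1 and H2-DMb2 are near copies. Their counted transcripts aligned with 76.3% identity, and 369 of the 1355 windows of 50 bases in H2-DMb1, 27.2%, also occurred in H2-DMb2. Their separate values are therefore uncertain. Cd74 and Ciita had other counted isoforms, whose totals were 83.23% of the used Cd74 row and 95.27% to 96.82% of the used Ciita row.

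Libraries held 10.7 M to 45.65 M counts (M, mega), of which 6.82 M to 31.72 M were on the genes used here. Counts on ribosomal RNA made up 1.385% to 15.047%, and 3 libraries were above 5%. These were replicate 1 of the 2 mg/kg scrambled group at week 0 and replicates 2 and 3 of the 2 mg/kg MIR29B group at week 2. Without them, replicate 1 alone stands for that MIR29B group. The labels call the cells erythrocytes, and erythroid transcripts led every library, at a summed level of 99500 to 227000 CPM. CPM are counts scaled to library size, here with edgeR's TMM factors. Leukocyte transcripts were present throughout: Cd79a, a subunit of the B cell receptor, ranged from 6.76 to 238 CPM. Summed over the 18 B cell markers tested, the level ranged from 27.6 to 479 CPM. Dendritic cell markers differed in level. Zbtb46, Xcr1 and Clec9a were most often without a count, in 15, 13 and 9 libraries. Bst2, Irf8 and Itgax were counted in every library, at medians of 38.4, 15.2 and 4.38 CPM. In bulk blood, fewer cells of a type and less RNA per cell cannot be told apart.

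A pair of libraries stood apart for the class II genes. Replicate 1 of the 2 mg/kg scrambled group at week 4 had the lowest value of all libraries for 8 of 9 members and a summed class II level of 99.0 CPM, and it also had the lowest B cell marker sum, 27.6 CPM. Replicate 3 of the 2 mg/kg MIR29B group at week 2 had the highest value for 6 members, with a summed level of 2040 CPM. It had the highest B cell marker sum, 479 CPM, and was 1 of the 3 libraries above 5% ribosomal RNA. Values without either library are given beside the results it moved most.

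Class II transcripts were readily counted in this blood, with Cd74 far above the rest and Ciita close to the limit of counting. Over the 36 libraries, Cd74 averaged 266 ± 144 CPM (SD, n = 36), H2-Ab1 117 ± 65.4, H2-Aa 108 ± 55.5 and H2-Eb1 102 ± 58.8. H2-Ob averaged 25 ± 10.3 CPM, H2-DMa 14.4 ± 8.36, H2-DMb1 13 ± 5.32 and H2-DMb2 8.03 ± 3.63. Ciita averaged 3.59 ± 2.31 CPM and had no count in replicate 1 of the 3 mg/kg scrambled group at week 2, where 3 counts would be 0.178 CPM.

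Per kilobase of transcript, the order of the levels put the peptide-binding chains and the invariant chain above the editing factors. Cd74 averaged 217 CPM per kilobase and exceeded H2-Ab1, at 96.4, in 36 of 36 libraries. H2-Ab1 and H2-Aa, at 95.8 CPM per kilobase, could not be ordered, since H2-Ab1 was the higher in 19 of 36. H2-Aa exceeded H2-Eb1, at 61.3 CPM per kilobase, in 36 of 36 libraries, and H2-Eb1 exceeded H2-Ob in 36 of 36. H2-Ob at 9.36, H2-DMb1 at 9.28 and H2-DMa at 8.68 CPM per kilobase overlapped, H2-Ob exceeding H2-DMb1 in 19 libraries and H2-DMb1 exceeding H2-DMa in 26. H2-DMb2 was at 5.64 CPM per kilobase, below H2-DMa in 27 of 36 libraries, and Ciita was lowest in 36 of 36, at 0.598.

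**Figure D1:**
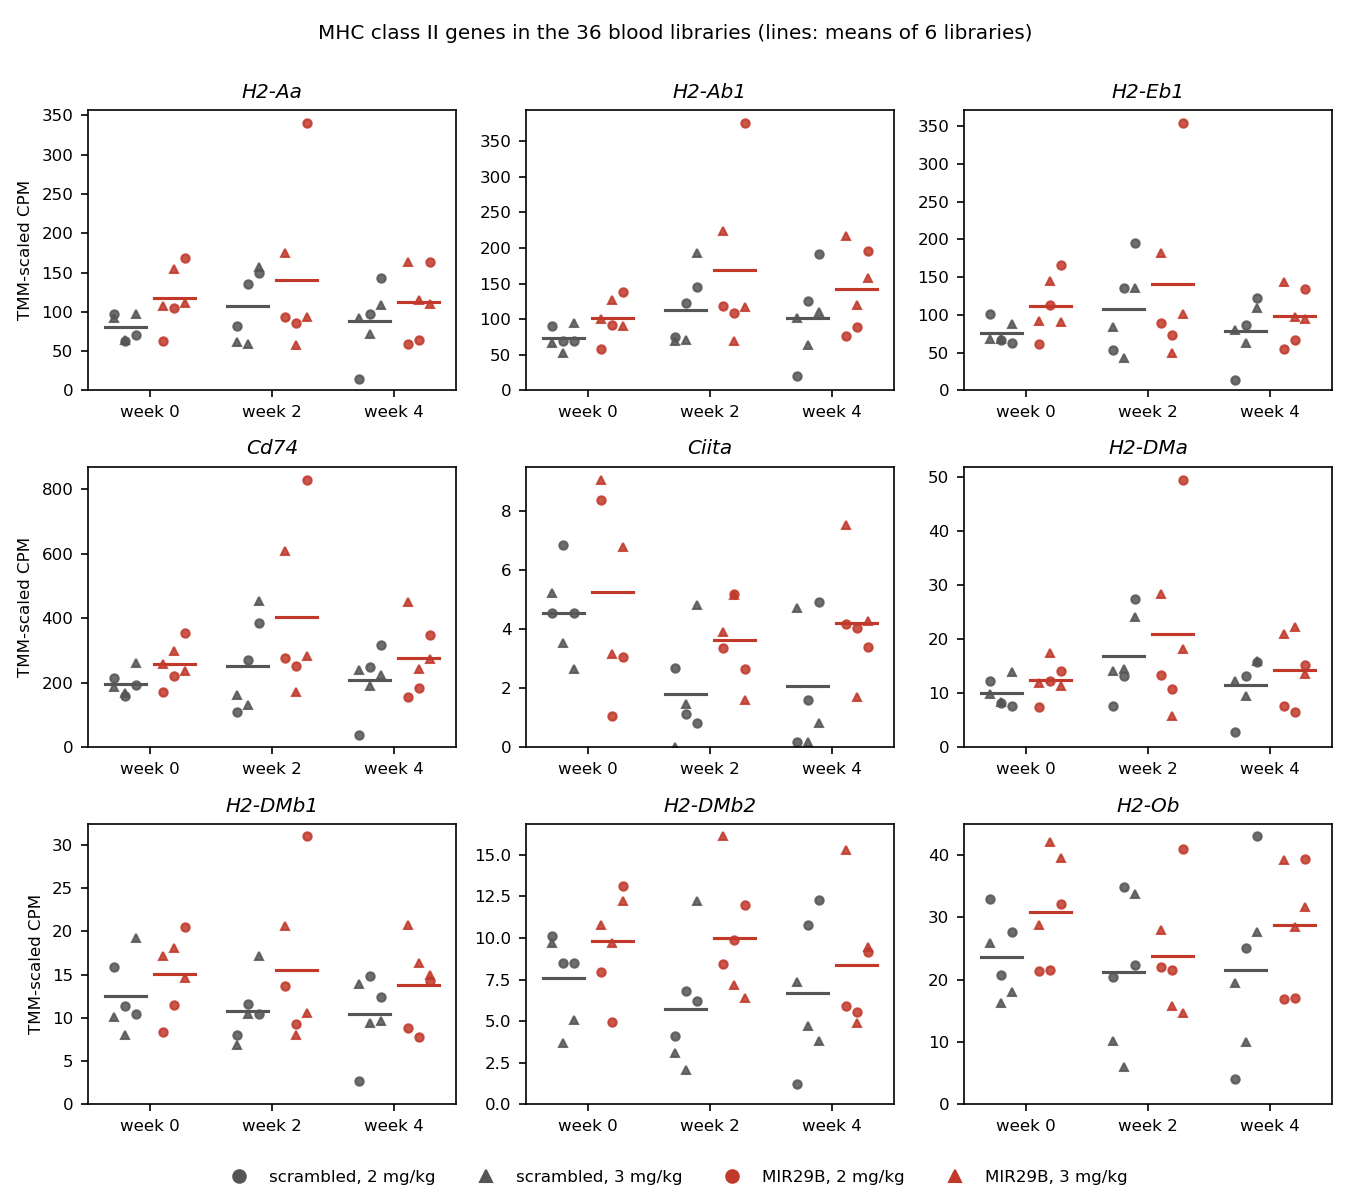
TMM-scaled CPM (vertical axis) of each of the 9 class II genes in the 36 libraries, by week (horizontal axis), with arm by colour, dose by symbol and the mean of 6 libraries as a line. Cd74 ran from 39.0 to 829.2 CPM, its lowest point in a scrambled library at week 4 and its highest in a MIR29B library at week 2, and the arms overlapped at every week.

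MIR29B was compared with scrambled at each week and dose. No class II gene differed between the arms at any week or dose after adjustment, and neither did any other gene. In each of the 6 comparisons at 1 week and 1 dose, and in the 3 with the doses averaged, edgeR's quasi-likelihood test called 0 of 9 members and 0.0% of the 11953 genes at an adjusted p under 0.05. No member had an unadjusted p under 0.05 in these 9 comparisons, and DESeq2 and limma voom called none of the 9 genes either. With the doses averaged, the log2 fold changes of all 9 members were above 0 at each week, with medians of 0.38 at week 0, 0.51 at week 2 and 0.35 at week 4. Over all genes tested, the medians were -0.05, -0.09 and 0.03. With upper quartile scaling the median of all genes at week 0 moved to 0.07 and that of the members to 0.51, and all 9 members stayed above 0 at each week under this scaling, RLE, DESeq2 and limma voom.

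Cd74, the invariant chain, shows the size of these differences. At week 4 and 3 mg/kg it was at 451, 243 and 275 CPM with MIR29B and at 240, 190 and 224 CPM with scrambled, so every MIR29B library lay above every scrambled one. At week 4 and 2 mg/kg it was at 156, 183 and 349 CPM with MIR29B and at 39.0, 249 and 318 CPM with scrambled, and the arms overlapped. With the doses averaged, its log2 fold change was 0.38 ± 0.40 (SE) at week 0, 0.67 ± 0.40 at week 2 and 0.38 ± 0.40 at week 4, with edgeR adjusted p = 0.904, 0.609 and 1.0. The interval of 2 SE at week 2 ran from -0.13 to 1.47, so a rise of more than 2-fold and no rise at all both lay within it.

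The peptide-binding chains had like values. H2-Ab1 at week 4 and 3 mg/kg was at 217, 120 and 158 CPM with MIR29B and 101.4, 63.5 and 110 CPM with scrambled, without overlap. Its log2 fold change with the doses averaged was 0.45 ± 0.40 at week 0, 0.56 ± 0.40 at week 2 and 0.47 ± 0.40 at week 4. H2-Aa had 0.55 ± 0.40, 0.37 ± 0.40 and 0.34 ± 0.40, and H2-Eb1 had 0.55 ± 0.42, 0.39 ± 0.42 and 0.30 ± 0.42. None of these passed the test, with edgeR adjusted p from 0.682 to 1.0.

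Among the editing factors, H2-Ob at week 0 and 3 mg/kg was at 28.8, 42.0 and 39.5 CPM with MIR29B and at 25.9, 16.3 and 18.1 CPM with scrambled. The arms did not overlap there, at a log2 fold change of 0.87 ± 0.55 and edgeR adjusted p = 1.0. H2-DMb2 at week 2 and 2 mg/kg was at 8.42, 9.86 and 12 CPM with MIR29B and at 4.10, 6.81 and 6.22 CPM with scrambled, also without overlap. Its difference with the doses averaged at week 2, 0.82 ± 0.41, had the smallest adjusted p of any member between the arms, 0.524 by edgeR. H2-DMa and H2-DMb1 ranged from 0.24 to 0.51 over the 3 weeks with the doses averaged.

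Ciita, the coactivator, was at 7.54, 1.72 and 4.29 CPM with MIR29B at week 4 and 3 mg/kg and at 4.72, 0.18 and 0.83 CPM with scrambled. Its log2 fold change with the doses averaged was 0.21 ± 0.62 at week 0, 1.04 ± 0.65 at week 2 and 1.0 ± 0.64 at week 4. These were the largest values of any member at weeks 2 and 4, with the widest errors, and the edgeR adjusted p was 0.994, 0.632 and 1.0.

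Counts of members whose arms did not overlap were uneven over the doses. All 3 MIR29B libraries were above all 3 scrambled ones for 4 members at week 0 and 3 mg/kg (H2-Aa, H2-DMb2, H2-Eb1 and H2-Ob), where 3.82% of all genes tested did so. At week 2 and 2 mg/kg this held for H2-DMb2 alone, against 5.65% of all genes. At week 4 and 3 mg/kg it held for 5 members (Cd74, H2-Aa, H2-Ab1, H2-DMb1 and H2-Ob), against 4.42%. It held for no member at week 0 and 2 mg/kg, week 2 and 3 mg/kg, or week 4 and 2 mg/kg, against 3.90%, 4.38% and 7.42% of all genes. No member had all MIR29B libraries below all scrambled ones. The members other than Ciita were correlated across libraries, so these counts are not 4 or 5 separate observations.

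Markers of other cells moved with the same comparisons. The B cell markers, 18 genes tested, had median log2 fold changes of 0.60, 0.46 and 0.39 between the arms at weeks 0, 2 and 4, and the 14 neutrophil markers tested had -1.12, -0.65 and -0.59. The summed B cell marker level at week 0 ran from 195 to 378 CPM with MIR29B and from 160 to 275 CPM with scrambled. With the mean B cell marker level of each library as a covariate in edgeR, the members' medians between the arms were -0.12, -0.04 and -0.03, and 0 of 9 were called. With a GC index of each library, the level of GC-rich against GC-poor transcripts, beside that level, they were 0.01, -0.20 and -0.11. At week 2, the median without replicate 3 of the 2 mg/kg MIR29B group was 0.15, with 5 of 9 members above 0. Without the 3 libraries above 5% ribosomal RNA it was 0.19, with 6 of 9 above 0, but only replicate 1 of that MIR29B group was then left. With replicate 3 of that group alone left out, H2-Aa was at -0.10, H2-Eb1 at -0.16 and H2-DMa at -0.20. H2-Ob was at -0.02 without replicate 2 of the 3 mg/kg scrambled group. At week 0, Ciita was at -0.26 without replicate 1 of the 2 mg/kg MIR29B group. At week 4, the median without replicate 1 of the 2 mg/kg scrambled group was 0.13, with 9 of 9 above 0. The part of these libraries and of the cell makeup in the arm values was otherwise not tested.

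**Figure D2:**
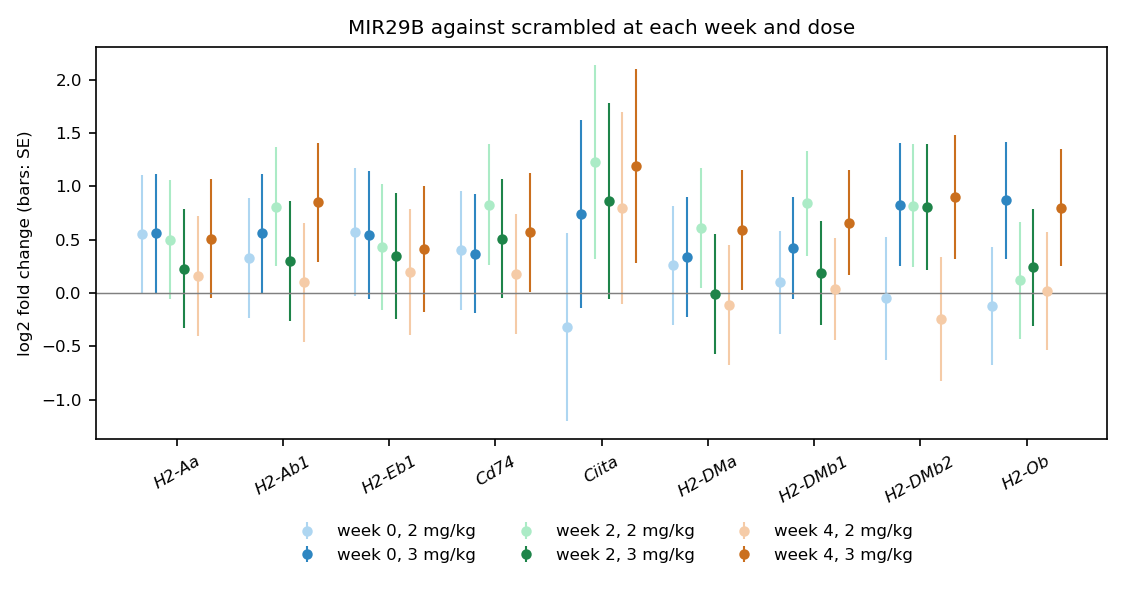
Log2 fold change of MIR29B against scrambled (vertical axis, bars 1 SE) for each class II gene at each week and dose. At 3 mg/kg all 9 genes lay above 0 at weeks 0 and 4, with medians of 0.56 and 0.66, and no value passed the test. At week 2 the 2 mg/kg median was 0.81, and without replicate 3 of the MIR29B group it was 0.00, with 4 of 9 genes above 0.

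The doses, 2 and 3 mg/kg, were compared within each arm and week. None of the class II genes differed between them. edgeR called 0 of 9 members in all 6 comparisons of 3 with 2 mg/kg, where it called 0.0418% of genes, 5 in all, in the scrambled arm at week 2 and none elsewhere. At an unadjusted p under 0.05 the count of members was also 0. In the MIR29B arm all 9 members were below 0 at week 2, with a median of -0.49, but this rested on replicate 3 of the 2 mg/kg group. Without it the median was 0.30 and 7 of 9 were above 0, H2-Aa going from -0.68 to 0.31. At week 4 all 9 were above 0, with a median of 0.45. Whether the MIR29B effect itself depended on dose was tested as an interaction, and 0 of 9 members passed at week 0, 2 or 4 by edgeR, with medians of 0.23, -0.32 and 0.62. Without replicate 3 of the 2 mg/kg MIR29B group the week 2 median was 0.42, and without replicate 1 of the 2 mg/kg scrambled group the week 4 median was 1.07.

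Weeks 2 and 4 were each compared with week 0 over both arms and doses, in tests that share the 12 week 0 libraries. The members went different ways. H2-DMa and H2-Ab1 had the highest values at week 2 and Ciita the lowest, and no member passed the test. At week 2 edgeR called 16% of all genes, 1042 higher and 865 lower, and at week 4 it called 6.16%, 506 higher and 230 lower. With upper quartile scaling the splits were 885 higher and 1200 lower at week 2 and 380 and 350 at week 4. The week 2 share depended on the libraries and on a GC index of each library: it was 7.03% without the 3 libraries above 5% ribosomal RNA and 0.527% with the GC index as a covariate. The members' count was 0 of 9 in both. At an unadjusted p under 0.05, 3 members were counted at week 2 and none at week 4.

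H2-DMa, the alpha chain of the peptide exchange factor, ranged from 7.44 to 17.4 CPM at week 0, with a mean of 11.2 ± 3.05 (SD, n = 12). At week 2 it ranged from 5.82 to 49.5 CPM, with a mean of 18.9 ± 12, and at week 4 from 2.76 to 22.3 CPM, with a mean of 13 ± 5.71. The weeks overlapped widely, and the spread at week 2 was the largest. Its log2 fold change at week 2 was 0.74 ± 0.28 (SE), with edgeR adjusted p = 0.066, and at week 4 it was 0.17 ± 0.28, with adjusted p = 0.798. DESeq2 put the week 2 change past the threshold, with adjusted p = 0.0455, and so did edgeR without any 1 of 4 week 2 libraries, which are replicate 1 of the 2 mg/kg scrambled group, replicates 1 and 2 of the 2 mg/kg MIR29B group and replicate 2 of the 3 mg/kg MIR29B group. Without replicate 3 of the 2 mg/kg MIR29B group, its highest library, the change was 0.49, that of H2-Ab1 was 0.46, that of Cd74 0.31, that of H2-Eb1 0.13 and that of H2-Aa 0.07, and the members' median went from 0.31 to 0.07.

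The I-A chains parted. H2-Ab1 had a mean of 87.5 ± 26.3 CPM at week 0, 141 ± 88.8 at week 2 and 122 ± 58.8 at week 4 (SD, n = 12 each), and its partner H2-Aa had 99.5 ± 34.3, 124 ± 79.1 and 100 ± 44. H2-Ab1 was at 0.66 ± 0.28 (SE) on the log2 scale at week 2, with edgeR adjusted p = 0.102, and at 0.47 ± 0.28 at week 4, with adjusted p = 0.377. H2-Aa was at 0.31 ± 0.28 and 0.02 ± 0.28, with adjusted p = 0.485 and 0.984. H2-Eb1, the I-E beta chain, was at 0.39 ± 0.30 and -0.06 ± 0.30, the latter 0.06 without replicate 1 of the 2 mg/kg scrambled group at week 4. Cd74 was at 227 ± 58.8 CPM at week 0, 328 ± 213 at week 2 and 243 ± 103 at week 4, with log2 changes of 0.50 ± 0.28 and 0.09 ± 0.28.

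The beta chains of H2-DM and H2-O gave values below 0. H2-DMb1 was at -0.09 ± 0.24 at week 2 and -0.21 ± 0.24 at week 4, H2-DMb2 at -0.18 ± 0.29 and -0.21 ± 0.29, and H2-Ob at -0.27 ± 0.27 and -0.11 ± 0.27, the latter 0.02 without the same scrambled library. Ciita had the lowest value, -0.92 ± 0.45 at week 2, with edgeR adjusted p = 0.16, and -0.70 ± 0.45 at week 4, with adjusted p = 0.416. Its means were 4.91 ± 2.44, 2.73 ± 1.77 and 3.14 ± 2.24 CPM (SD, n = 12) at weeks 0, 2 and 4, and the weeks overlapped. limma voom put the week 2 change of Ciita past the threshold, at -1.27 ± 0.46 and adjusted p = 0.0485.

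Within the arms the week comparisons also called no member. In the MIR29B arm edgeR called 5.44% of all genes at week 2 and 3.09% at week 4, and in the scrambled arm 3.21% and 0.46%, with 0 of 9 members each time. Ciita in the scrambled arm at week 2, at -1.34 ± 0.65, was the 1 member under an unadjusted p of 0.05, with edgeR adjusted p = 0.241. H2-Ab1 was at 0.72 ± 0.40 in the MIR29B arm and 0.61 ± 0.40 in the scrambled arm at week 2. Without replicate 3 of the 2 mg/kg MIR29B group its value in the MIR29B arm was 0.30, and the members' median in that arm went from 0.22 to -0.24. The difference between the arms in the change from week 0, tested as an interaction, passed for 0 of 9 members and 0.0% of genes at both weeks. Week 4 against week 2 called 1.05% of genes over both arms and none within an arm. No member was called there, and H2-DMa, at -0.57 ± 0.28 with edgeR adjusted p = 0.27, was the 1 member with an unadjusted p under 0.05. Without that library it was at -0.31.

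At a given mean level of the 18 B cell markers, several class II genes were higher at week 2 than at week 0. These markers had medians of -0.50 at week 2 and -0.58 at week 4. At week 2, 3 of them, Cr2, Ralgps2 and Ms4a1, fell, where 7.24% of all genes were called lower. With the GC index as a covariate none of the 18 markers passed at week 2, against 0.0418% of all genes called lower. The mean of Cd79a, the most abundant of them, was 57.4 ± 25.7 CPM (SD) at week 0 and 78.1 ± 62.2 at week 2. The ratio of Cd74 to Cd79a was 4.33 ± 1.1 at week 0 and 4.96 ± 1.88 at week 2, in overlapping ranges. How far the values below depend on the markers taken was not tested. With the mean log2 level of the B cell markers as a covariate, edgeR called 5 of 9 members higher at week 2, where 4.64% of all genes were called higher. These 5 members were correlated across libraries, so they are not 5 separate observations. H2-Ab1 was at 1.17 ± 0.19 with adjusted p = 0.000257, H2-DMa at 1.14 ± 0.25 with adjusted p = 0.00459, and Cd74 at 0.98 ± 0.19 with adjusted p = 0.00142. H2-Eb1 was at 0.90 ± 0.23 with adjusted p = 0.0126, and H2-Aa was at 0.84 ± 0.19 with adjusted p = 0.00608. The remaining 4 did not pass, H2-DMb2 at 0.41 ± 0.18, H2-DMb1 at 0.32 ± 0.20, H2-Ob at 0.27 ± 0.15 and Ciita at -0.39 ± 0.47. The same 5 members were called without replicate 1 of the 2 mg/kg scrambled group at week 4, which had the lowest marker level. Without replicate 3 of the 2 mg/kg MIR29B group at week 2, which had the highest, 4 were called, and H2-Eb1 was at 0.71 ± 0.24 with edgeR adjusted p = 0.0739.

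At week 4 with this covariate, H2-Ab1 alone was called, at 1.01 ± 0.20 with edgeR adjusted p = 0.00144, where 2.07% of all genes were called higher. In week 4 against week 2, 0 of 9 members were called, against 0.87% of genes. Within the MIR29B arm at week 2, H2-Ab1 was at 1.18 ± 0.26 and Cd74 at 1.10 ± 0.26, with adjusted p = 0.00886 and 0.0155, against 1.99% of genes. Neither passed without replicate 3 of the 2 mg/kg group, at 0.97 ± 0.28 and 0.91 ± 0.29 with edgeR adjusted p = 0.0632 and 0.0964. At week 4 in that arm H2-Ab1 was at 1.08 ± 0.27 with adjusted p = 0.0215, against 1.72%. In the scrambled arm at week 2, H2-Ab1 was at 1.17 ± 0.27 with adjusted p = 0.0324, against 0.443% of genes. The arms were not compared in these counts, and the interaction with the covariate in place passed for 0 of 9 members.

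These calls moved with a GC index of each library, built from the levels of the other tested genes. The index was the mean log2 level of genes in the highest quartile of transcript GC content minus that of genes in the lowest. It had medians of -0.23 at week 0, 0.42 at week 2 and -0.07 at week 4. It ran from -0.40 to -0.03 at week 0 and from -0.39 to 0.83 at week 2. Index and week thus went together, and errors at week 2 were wider with the index. Whether the index is technical was not tested, and a call lost with it need not mean that a gene did not change. With the GC index beside the B cell marker level, edgeR called 0 of 9 members at week 2, where it called 0.326% of genes higher. H2-Ab1 was then at 0.66 ± 0.27 with adjusted p = 0.563, and Cd74 was at 0.21 ± 0.23 with adjusted p = 0.941. At week 4 H2-Ab1 stayed past the threshold, at 0.88 ± 0.19 with adjusted p = 0.00457, against 2.47% of genes called higher. With the GC index alone no member was called, and at week 2 Cd74 was at -0.20 ± 0.44, H2-DMa at -0.07 ± 0.44, H2-Eb1 at -0.36 ± 0.48 and H2-Aa at -0.07 ± 0.47, on the other side of 0. A length index built in the same way from transcript length had medians of 0.24 at week 0, -0.21 at week 2 and 0.19 at week 4. With it as the covariate, Ciita, the longest transcript of the group, was at -0.22 ± 0.35 at week 2.

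**Figure D3:**
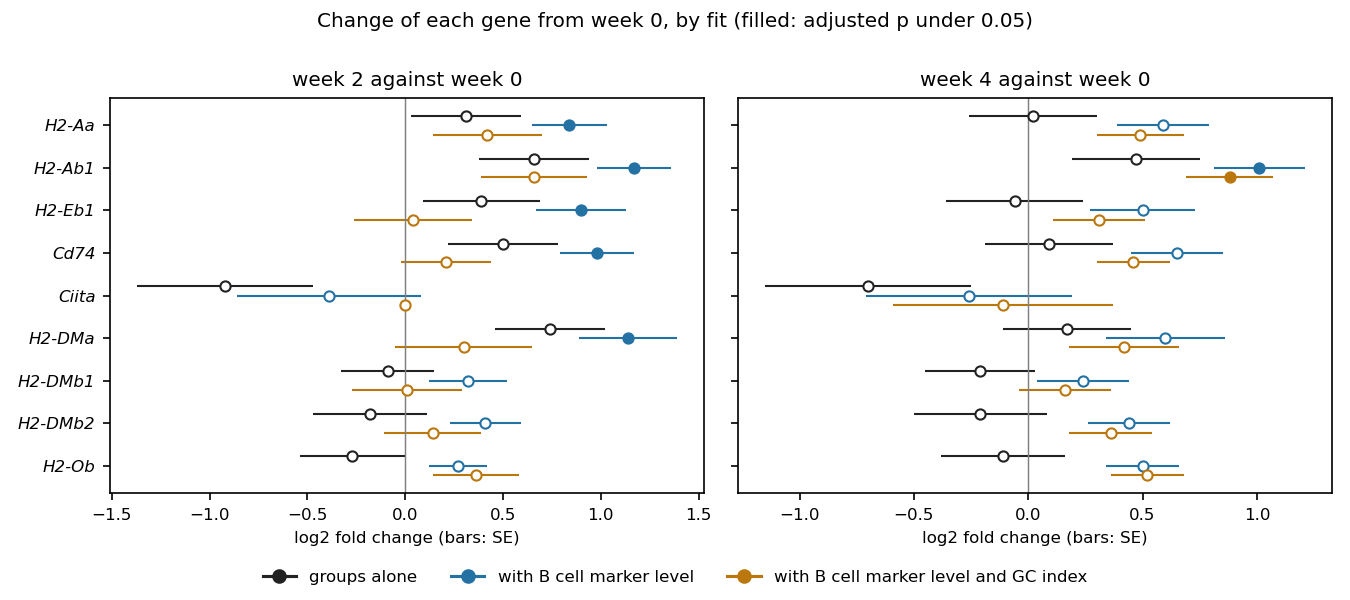
Log2 fold change from week 0 (horizontal axis, bars 1 SE) of each class II gene at week 2 and week 4, in the model with groups alone, with the B cell marker level and with that level plus the GC index, filled where the edgeR adjusted p was under 0.05. H2-Ab1 is filled at week 4 in both models with covariates, at 1.01 and 0.88, and the 5 genes filled at week 2 are filled with the B cell marker level alone.

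Ratios between members within a library do not depend on the overall amount of class II RNA in it, and they were compared between weeks after the parting of the I-A chains had been seen. H2-Ab1 gained on its partner H2-Aa in blood after week 0. The ratio of H2-Ab1 to H2-Aa in CPM was 0.894 ± 0.102 (SD, n = 12) at week 0, from 0.726 to 1.10, with 1 of 12 libraries above 1. At week 2 it was 1.14 ± 0.141, from 0.908 to 1.28, with 9 of 12 above 1, and at week 4 it was 1.22 ± 0.174, from 0.880 to 1.44, with 11 of 12 above 1. The ranges of week 0 and of the later weeks overlapped.

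For all 36 pairs of members, log2 ratios were compared between groups of libraries in 216 tests, by permutation with 100000 resamples for 12 against 12 libraries or exactly for 6 against 6, two-sided, with Benjamini-Hochberg adjustment over the 216. For H2-Aa over H2-Ab1, the week 2 mean was below that of week 0 by 0.35 ± 0.07 (SE), adjusted p = 0.0067, with 12 of 12 libraries below the week 0 mean. At week 4 it was below by 0.44 ± 0.08, adjusted p = 0.004, with 11 of 12 below. In all, 7 pairs passed at week 2 and 6 at week 4, and none passed between the arms or between weeks 4 and 2. H2-Ab1 also gained on H2-DMb1 at both weeks, by 0.67 ± 0.09 and 0.56 ± 0.13, and on H2-Ob, by 0.91 ± 0.18 and 0.60 ± 0.12. It gained on H2-Eb1 by 0.50 ± 0.08 and on Cd74 by 0.37 ± 0.08 at week 4. At week 2 H2-DMa gained on H2-DMb1 by 0.68 ± 0.16 and on H2-Ob by 0.92 ± 0.27. The week 2 and week 4 tests share the week 0 libraries.

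The rise in the log2 ratio of H2-Ab1 to H2-Aa was also computed within each arm and dose, and differences between these subsets were not tested. At week 2 it was 0.19 in the scrambled libraries alone, with exact permutation p = 0.136, and 0.50 in the MIR29B libraries alone, with exact permutation p = 0.00216, the smallest that 6 against 6 can give. It was 0.18 in the 2 mg/kg libraries alone, with exact permutation p = 0.13, and 0.52 in the 3 mg/kg libraries, with exact permutation p = 0.00216. The lowest week 2 ratios, 0.908 and 0.913, were in replicates 1 and 2 of the 2 mg/kg scrambled group, which also had the lowest GC indices of that week, -0.39 and -0.38. At week 4 it was 0.31 in scrambled and 0.56 in MIR29B libraries, with exact permutation p = 0.0411 and 0.00216, and 0.47 at 2 mg/kg and 0.40 at 3 mg/kg, with exact permutation p = 0.00216 and 0.0108. The ratio itself did not pass the test between the arms at any week.

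GC content differed between these transcripts and moved with the ratio. The H2-Ab1 transcript has 57.3% GC and the H2-Aa transcript 51.0%, while H2-DMa has 56.6%, Cd74 56.0% and H2-Ob 46.0%, the lowest of the group. Over the 36 libraries, the log2 ratio of H2-Ab1 to H2-Aa had Pearson's r = 0.51 and Spearman's rho = 0.61 with the GC index, with permutation p = 0.0015 and 0.0002. Adjusted over the 3 library measures tried, the permutation p for r was 0.0045. Without the 2 libraries farthest from the median index, r was 0.58, and within weeks 0, 2 and 4 it was 0.65, 0.53 and 0.37. With the index of length, r was 0.11, and with the ribosomal share it was 0.13. Within weeks 0, 2 and 4, r was 0.21, 0.15 and 0.65 with the index of length and 0.02, 0.13 and 0.23 with the ribosomal share.

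With the GC index in a linear model beside the weeks, H2-Aa over H2-Ab1 was at -0.15 ± 0.10 (SE) at week 2 and -0.38 ± 0.07 at week 4. H2-Ab1 over H2-DMb1, genes of 57.3% and 53.8% GC, was at 0.62 ± 0.17 and 0.55 ± 0.13. H2-Ab1 over H2-Ob was at 0.32 ± 0.16 and 0.43 ± 0.12, and H2-DMa over H2-Ob was at 0.08 at week 2. All 3 values for H2-Ab1 kept their sign at both weeks, and at week 2 the values against H2-Aa and H2-Ob shrank more than the value against H2-DMb1.

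**Figure D4:**
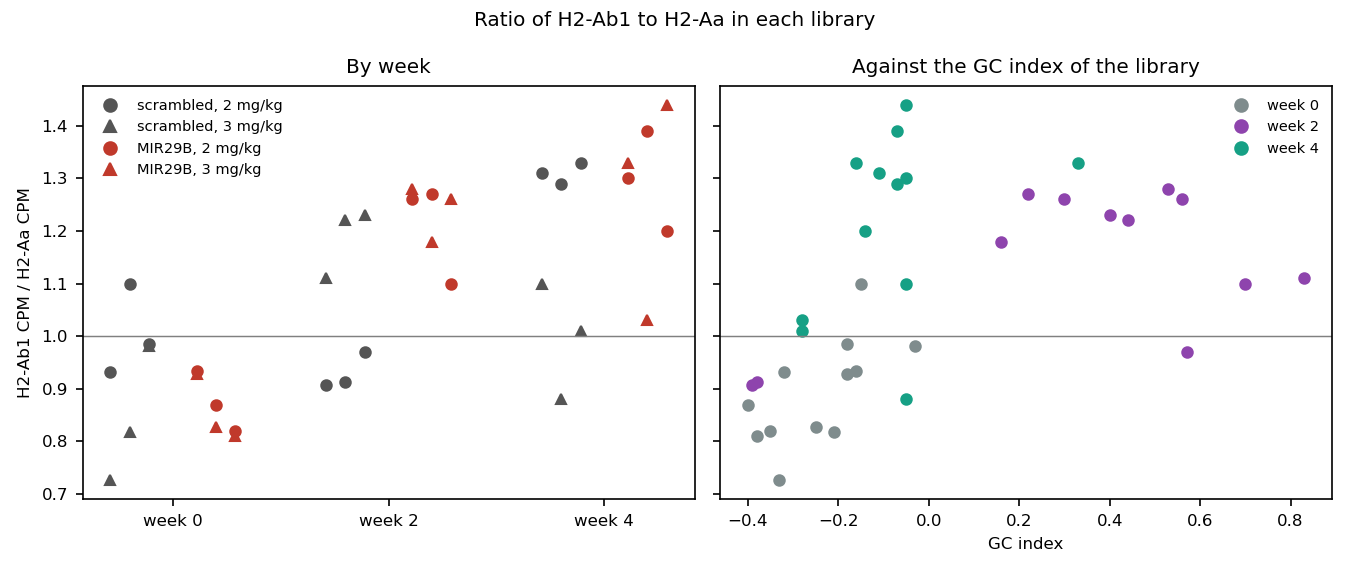
Ratio of H2-Ab1 to H2-Aa in CPM (vertical axis) in each library, by week with arm and dose marked, and against the GC index of the library (log2 units) with weeks coloured. At week 0, 11 of 12 libraries lie at or below 1, and at week 4, 11 of 12 lie above it, while libraries with a higher GC index tend to have a higher ratio within each week.

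The other genes of the pathway were read from lists, with the weeks as the comparison since no gene was called between the arms. At week 2, 8.72% of all genes were called higher and 7.24% lower, and at week 4 4.23% and 1.92%. With the GC index as a covariate, none of the calls at week 2 in the lists of class II processing, class II transcription factors, interferon-gamma signalling and class I passed. Of 11 other class II chains and processing genes tested, Ctsd, an endosomal protease, rose at week 2 by 1.07 ± 0.25, with edgeR adjusted p = 0.00387, and was at 0.08 ± 0.36 with the GC index. Its mean of 103 ± 26.8 CPM at week 0 became 240 ± 264 at week 2, where 1 library reached 1070. Marchf8, a ubiquitin ligase that takes class II molecules and other proteins off the membrane, fell at week 2 by 0.64 ± 0.21, with adjusted p = 0.0329, and at week 4 by 0.69 ± 0.21, with adjusted p = 0.0415. The call was lost when 1 of 24 libraries was left out for 13 of them at week 2 and 18 at week 4. Its mean was 124 ± 45.5 CPM at week 0, 79.7 ± 28.6 at week 2 and 75.8 ± 18.6 at week 4. The other 9 did not pass at either week, among them the processing protease Ctss, H2-Oa, which pairs with H2-Ob, and H2-Eb2. The list's median was 0.20 at week 2 and -0.03 at week 4, against -0.03 and -0.04 over all genes.

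Few regulators of the class II genes passed the test. Of 10 class II transcription factors, which include the X box complex of Rfx5, Rfxap and Rfxank and the Y box complex of Nfya, Nfyb and Nfyc, 1 passed the test. This was Creb1, which fell at week 2 by 0.79 ± 0.23, with edgeR adjusted p = 0.0171, but was at 0.12 ± 0.30 with the GC index. Of 10 genes that carry the interferon-gamma signal to Ciita, Irf1 rose at week 2 by 0.65 ± 0.18, with adjusted p = 0.0126, and none passed at week 4. Ifng itself was at a median of 0.534 CPM.

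MHC class I genes serve the parallel route for cytosolic peptides. Of 16 tested, 4 rose at week 2 and none fell. H2-D1, a class I heavy chain, rose by 0.86 ± 0.18, with edgeR adjusted p = 0.00106, and at week 4 by 0.83 ± 0.18, with adjusted p = 0.00239. With the GC index it was at 0.57 ± 0.28 and 0.75 ± 0.18, with edgeR adjusted p = 0.523 and 0.00981. H2-T23, a nonclassical class I gene, rose at week 2 by 1.05 ± 0.26 and the chaperone Calr by 0.91 ± 0.25. The list's medians of 0.10 and 0.00 at weeks 2 and 4 stood beside -0.03 and -0.04 over all genes. Of 6 costimulation genes, Cd80 rose at both weeks, by 2.57 ± 0.52 and 3.75 ± 0.50, with edgeR adjusted p = 0.00108 and 4.77e-06. With the GC index it rose by 3.07 ± 0.70 and 3.95 ± 0.53. Its level was low, with means of 0.337 ± 0.326, 0.89 ± 0.582 and 2.09 ± 1.29 CPM (SD) at weeks 0, 2 and 4. It had no count in 4 libraries, so the size of these changes is uncertain.

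Marker lists of the cells that could carry class II were set beside these. Of all genes tested, 8.72% were called higher at week 2, or 0.485% with the GC index, and 4.23% at week 4. Among 14 monocyte markers, 2 rose at week 2, or 1 with the GC index, and 4 rose at week 4, while the others did not pass. Cd14 rose by 2.33 ± 0.29 at week 2 and 2.74 ± 0.29 at week 4, Nr4a1 rose at both weeks, and Adgre1 rose at week 4. Of 14 neutrophil markers tested, 11 rose at week 2, or 2 with the GC index, and 4 at week 4, led by Il1r2 at 3.09 ± 0.37 and 3.78 ± 0.38. None of the 11 dendritic cell markers tested and none of the 8 platelet markers passed at either week. Of the 12 T cell markers, Il7r fell at week 2 and Cd8b1 at week 4. Of the 18 B cell markers, Cd79b and Cr2 fell at week 4. Among 17 erythroid genes, 2 rose at week 2, Ank1 and Slc4a1, and 3 fell, Hemgn and Epb42 among them. Epb42 fell at week 4. With the GC index no erythroid gene passed at either week, and no T cell marker passed at week 2. The summed monocyte markers had medians of 457, 590 and 748 CPM at weeks 0, 2 and 4 and the summed B cell markers 218, 170 and 155, in widely overlapping ranges.

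The members other than Ciita were positively correlated across libraries. Over the 36 libraries, on log2(CPM + 0.5), the 36 pairs of members had Pearson's r from -0.01 for Ciita with H2-DMa to 0.96 for H2-Aa with H2-Eb1, with a median of 0.76. The 28 pairs without Ciita had r from 0.46 to 0.96 and Spearman's rho from 0.32 to 0.94, while the 8 pairs with Ciita had r from -0.01 to 0.68 and rho from -0.27 to 0.62, closest with H2-DMb2. Within week 0, Ciita had r of -0.50 with H2-Eb1, -0.46 with H2-DMa, -0.35 with H2-Aa and -0.32 with both H2-Ab1 and Cd74. All the libraries share depth and cell makeup as sources of such correlation, and 81 relations were computed. Ciita has the longest transcript, at 6007 bases, and its ratios to the others moved with the length index. With that index beside the weeks, the SE of the week 2 difference went from 0.41 to 0.15 for Cd74 over Ciita. For Ciita over H2-DMb2 it went from 0.30 to 0.17. The part of transcript length in the correlations of Ciita was not tested. H2-Ob followed the mean B cell marker level most closely, with r = 0.92, Spearman's rho = 0.87 and adjusted permutation p = 0.00023 for r, from a raw p of 1e-04, the smallest the permutations can give. Its r was 0.85 without the 2 farthest libraries, and 0.90, 0.97 and 0.96 within weeks 0, 2 and 4. Cd74 had r = 0.72 and rho = 0.61, with r = 0.54 without the 2 farthest and 0.70, 0.76 and 0.98 within the weeks.

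Over the 36 libraries, H2-DMa was the member least tied to B cell markers. Its r was 0.45, with adjusted permutation p = 0.014, and its rho was 0.30, with adjusted permutation p = 0.12. Without the 2 farthest libraries r was 0.31, so the relation rests in part on those libraries. Within weeks 0, 2 and 4 the r of H2-DMa was 0.51, 0.4 and 0.88. For Ciita it was 0.22, 0.49 and 0.73, so H2-DMa was not the lowest within every week. With monocyte markers, r ran from -0.46 for H2-Ob to -0.11 for Ciita, and with dendritic cell markers from 0.18 for H2-Eb1 to 0.45 for H2-DMb1. With neutrophil markers it ran from -0.61 for H2-Ob to 0.02 for H2-DMa.

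**Figure D5:**
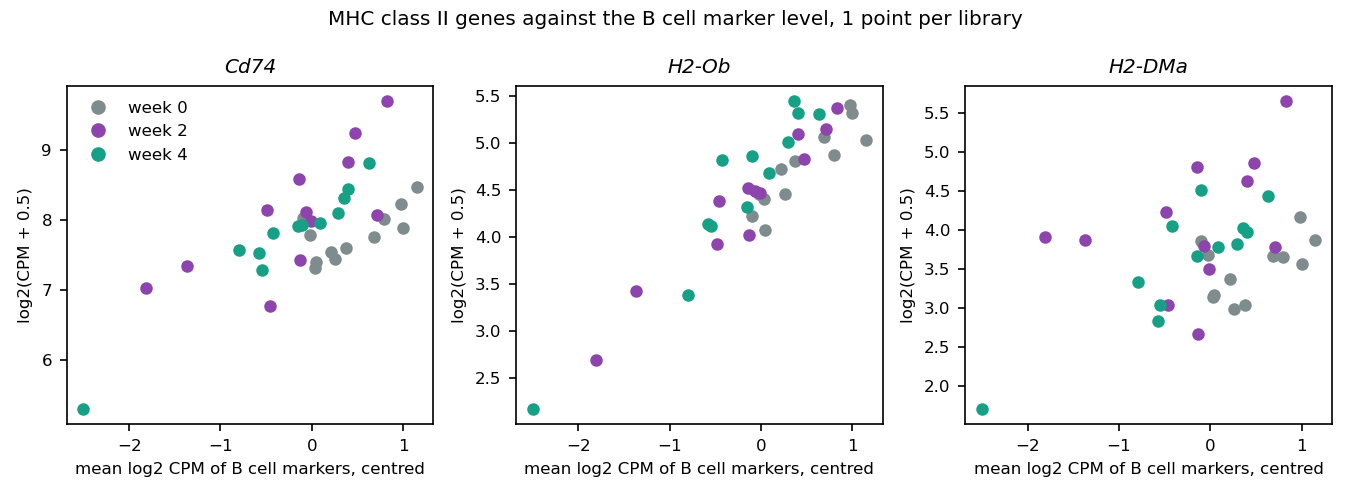
Level of Cd74, H2-Ob and H2-DMa on log2(CPM + 0.5) (vertical axis) against the mean log2 CPM of the B cell markers, centred on 0 (horizontal axis), 1 point per library and coloured by week. H2-Ob lies along 1 line, r = 0.92, while Cd74 points of week 2 tend to lie above those of week 0 at the same marker level, and H2-DMa scatters most, r = 0.45.

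By likeness, several of the genes nearest to the class II group were B cell markers. Among 4255 other genes with a mean of at least 5 CPM, correlated with the mean of the 9 members after each was scaled to unit variance over the 36 libraries, the highest included Fcmr at r = 0.87, Cd2 and Cd79a at 0.86, Shisa5 at 0.85, Fcrla and Cd37 at 0.84, Fcer2a at 0.83, Blk at 0.82 and Ly6d at 0.79. Of these, Fcmr, Cd79a, Fcrla, Fcer2a and Blk belonged to the B cell marker list, and Cd2, Shisa5, Cd37 and Ly6d did not. The median r over all the genes searched was -0.06.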

How the data were processed

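Peripheral blood RNA of 36 libraries was analysed as the raw counts per RefSeq transcript that the authors deposited. Per the submitters' processing notes the build was GRCm38, with featureCounts 1.5.0-p3 and HISAT2 2.0.5 among the tools. Settings, strand use included, are not given in the sources used here. Every deposited count was even (0 odd values), so halved counts were tried as an alternative. Of 25856 transcripts, 25650 were named through RefSeq tables and 132 through GENCODE, and 74 without a name stayed out. The transcript with the highest total stood for each gene.

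R 4.3.3 and edgeR 4.0.16 fitted 1 quasi-likelihood model to 12 groups of 3 libraries, with TMM scaling and filterByExpr (minimum count 10, minimum total 15), and p-values were adjusted by Benjamini-Hochberg over the 11953 genes of each comparison, with calls at an adjusted p under 0.05. The common dispersion of 0.25, a coefficient of variation of 0.5, limits what 3 libraries a group can show. SE was taken from the fold change and its F statistic, and intervals are 2 SE either way. DESeq2 1.42.0, limma 3.58.1 (voom), other scalings, no filter, summed transcripts, a replicate block, libraries left out and a B cell marker covariate were alternatives. The covariates for GC and length (11634 genes with both, 97.4% of those tested) and the tests of ratios were chosen after seeing the data. Correlations used 9999 permutations.

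Members and lists were chosen with earlier results of these data known. The members are named in every comparison. From each other list, up to 3 called genes with the smallest p are named, or the most abundant gene where none was called. Genes named beyond that rule were chosen after their values were seen. The fits were checked on simulated counts. Some genes of the marker lists and of the likeness search are not reported here.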

Additional observations from a re-analysis of the deposited data

How the results depend on the processing

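For the weeks over both arms and doses, the count of class II members called at week 2 against week 0 was 0 as reported, 1 with DESeq2 (H2-DMa), 1 with limma voom (Ciita) and 3 with no filter on low counts (H2-Ab1, Ciita and H2-DMa). It was 5 with the B cell marker covariate, with and without replicate 1 of the 2 mg/kg scrambled group at week 4, 4 without replicate 3 of the 2 mg/kg MIR29B group at week 2 (H2-Eb1 lost), and 0 to 1 when each library was left out with no covariate. At week 4 against week 0 it was 1 with the B cell marker covariate, with or without either of those libraries and with the GC index added. In the MIR29B arm it was 2 at week 2 with the covariate, with or without that scrambled library, but 0 without the MIR29B library, and 1 at week 4. In the scrambled arm at week 2 it was 1 with no filter and 1 with the covariate. The rise of the H2-Ab1 to H2-Aa log2 ratio at week 2 was 0.35, and it was 0.19 in the scrambled libraries alone (exact permutation p = 0.136) and 0.18 in the 2 mg/kg libraries alone (exact permutation p = 0.13). The cause was not tested.

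Whether replicate numbers pair the libraries, for instance as samples of the same animal, could not be told from these values. Same-numbered libraries of different arms correlated at -0.37 to 0.43 in their deviations, with 9 of 18 pairs over 0.1. Those of different weeks in 1 dose and arm correlated at -0.50 to 0.42, with 14 of 36 over 0.1. In 2 of the 4 dose and arm groups, 2 mg/kg MIR29B and 3 mg/kg scrambled, replicate 3 had the highest summed class II level at each of the 3 weeks. A replicate block called 0 members in every comparison and moved the number of genes called at week 2 against week 0 from 1907 to 1951. A replicate block within dose and arm gave 1481. Over all genes, the count at week 2 fell to 916 without the 3 libraries above 5% ribosomal RNA and to 63 with the GC index. At week 4 it was 1216 with only the groups compared, 1112 with DESeq2 and 1354 with the length index, against 736. None of the values recomputed changed sign past the threshold. Depth limits Ciita most, with 0 counts in 1 library.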
